A study of Mus musculus with 8 samples.

Results

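Transcripts of neutrophils, monocytes and macrophages were examined in the epidermis of imiquimod-treated mice. The set holds 33 genes, taken by symbol from a list of myeloid markers, out of the 23171 genes of the deposited count table. All 33 are in the table, and 25 of them passed the count filter (edgeR's filterByExpr, about 10 counts in at least 4 libraries), against 14004 of all genes. The groups were epidermis-specific Hnrnp-u knockout mice given imiquimod (cKO, 4 libraries) and control mice labelled WT given imiquimod (4 libraries), with 4 mice per genotype in the design text. Both groups received imiquimod, a Toll-like receptor 7 agonist that causes psoriasis-like inflammation on mouse skin, and no samples without it were analysed here. The tissue is labelled epidermis and the cell type keratinocytes. The labels used here state no age, strain or promoter that drives the deletion. The deletion is described as specific to the epidermis, so the labels do not name the myeloid cells as its target.

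Neutrophils are short-lived granulocytes that leave the blood along gradients of chemokines read by Cxcr2, mature under G-CSF read by Csf3r, and carry granules of antimicrobial proteins and proteases. Monocytes follow Ccr2 ligands into inflamed tissue and become macrophages, which take up debris, sense antibody through Fc receptors and make most of the complement component C1q. In psoriasis neutrophils gather in the upper epidermis, while macrophages lie mainly in the dermis. Several of these genes are shared with other epidermal cells. Langerhans cells, the resident antigen-presenting cells of the epidermis, also use Csf1r, Tyrobp and Fcer1g.

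Libraries held 37158621 to 38865722 counts. Hnrnpu was at 190, 373, 355 and 312 CPM, counts scaled to library size, in cKO replicates 1 to 4 and at 455, 424, 431 and 439 CPM in WT replicates 1 to 4, which does not overlap but did not pass the genome-wide test (edgeR adjusted p = 0.191). Keratinocyte markers were abundant in every library. The 6 genes Krt5, Krt14, Krt1, Krt10, Lor and Trp63 summed to 58980 to 86019 CPM in cKO and 66288 to 88100 CPM in WT libraries, whereas all 33 myeloid genes summed to 81.2 to 161 CPM in cKO and 149 to 214 CPM in WT libraries.

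No member was called at an adjusted p below 0.05 in the edgeR quasi-likelihood test, either higher or lower in cKO. DESeq2 called 3 of the 33 as lower (Cd14, Acod1 and Clec4d). It also called far more genes in all, 587 as lower and 707 as higher. These are out of 23171 genes with a fold change, not all of which had an adjusted p. Among the members, Cd177, Ngp, Ltf, Retnlg and Cd163 had no adjusted p from DESeq2. Of all genes in the edgeR test 1.32% were called, 0.671% as higher and 0.65% as lower in cKO. At an unadjusted p below 0.05, 3 of the 25 tested members (Cd14, Hdc and Itgam) stood lower in cKO, where 18.6% of all tested genes reach that level in either direction and 8.71% reach it as lower. The closest to a call was Cd14, the co-receptor of Toll-like receptor 4, with an adjusted p of 0.0874. Fold changes of 23 of the 25 were negative, against 48.1% of all tested genes, and the median log2 fold change of the 25 was -0.33, against 0.01 for all tested genes. Members share cell types and libraries, so these counts describe these 8 libraries and are no test. The median moved to -0.67 without cKO replicate 1 and to -0.17 without cKO replicate 2. In whole tissue, fewer cells of a type and less RNA per cell cannot be told apart.

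**Figure D1:**
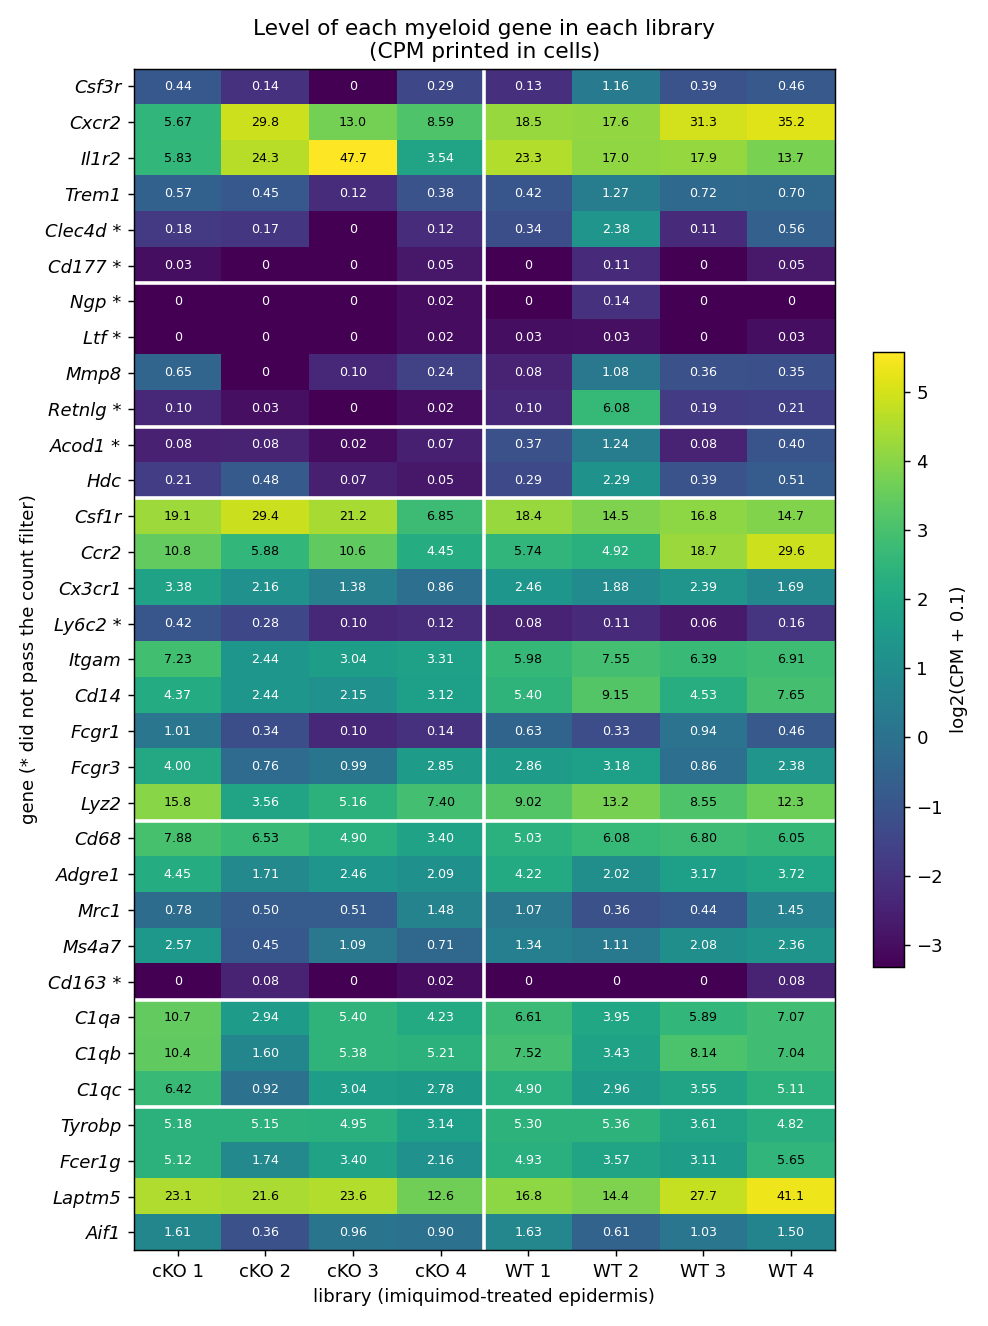
Level of each of the 33 genes in each library, as CPM printed in the cells and coloured on a log2(CPM + 0.1) scale, with genes in rows by role and cKO libraries left of WT libraries. Retnlg stands at 6.08 CPM in WT 2 and at no more than 0.214 CPM elsewhere, while Cxcr2 and Laptm5 stay above 5 CPM in every library.

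**Figure D2:**
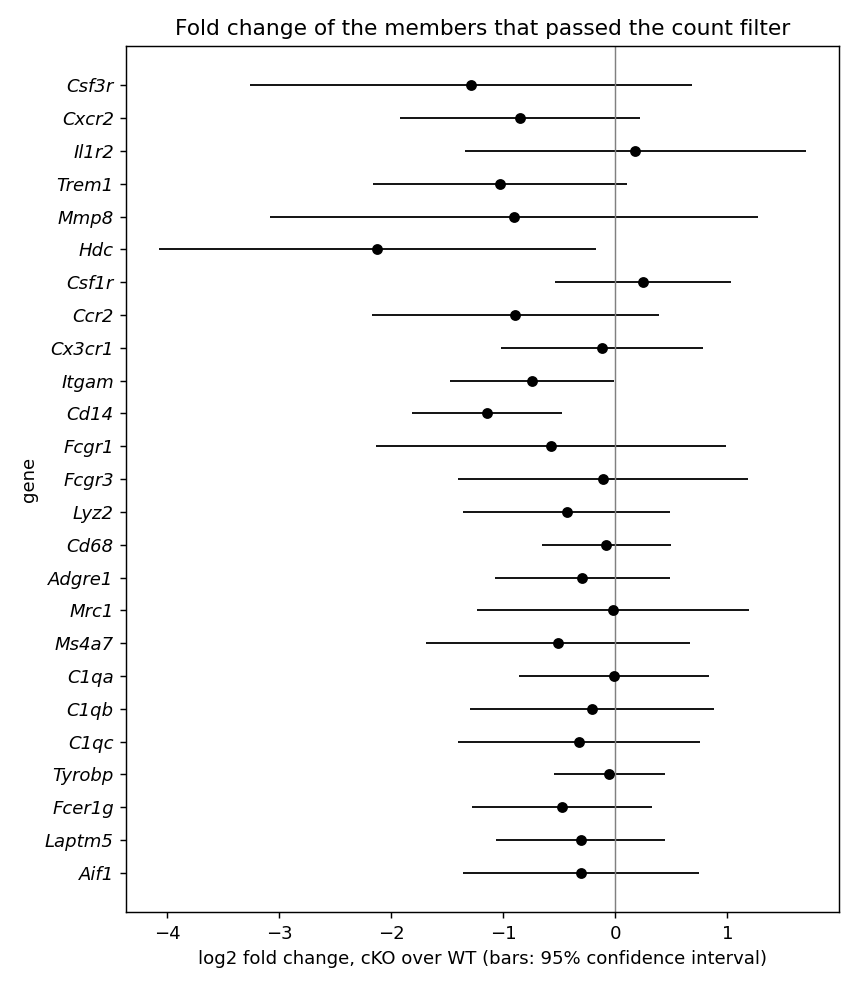
The log2 fold change of the 25 tested members (horizontal axis, cKO over WT), with points for the estimate and bars for the 95% confidence interval. Only the intervals of Hdc, Itgam and Cd14 leave out 0, and only before adjustment over all genes.

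The sequences upstream of 6 members are shown, picked for the levels of these genes, and no result here rests on the sequences. Retnlg, Acod1 and Clec4d are genes of recruited and activated myeloid cells whose counts peaked in 1 library. Cxcr2 is the chemokine receptor that was abundant in all 8 libraries, also where those had few or no counts. C1qb and C1qc encode chains of C1q whose levels had the same order among the cKO libraries, though not among the WT libraries. Each is 300 bases from RefSeq (GRCm38.p6), from 250 before to 50 after the annotated start, printed 5′ to 3′ on the gene's strand. These coordinates belong to the RefSeq table only, since the sources used here name no build for the counts. Capitals mark matches on either strand to GAGGAA, the core that the myeloid factor PU.1 binds, or to TTGCNNAA, a pattern of the C/EBP factors of granulocytes, with no overlap between them in these windows.
Retnlg promoter, chr16:48872358-48872657, plus strand: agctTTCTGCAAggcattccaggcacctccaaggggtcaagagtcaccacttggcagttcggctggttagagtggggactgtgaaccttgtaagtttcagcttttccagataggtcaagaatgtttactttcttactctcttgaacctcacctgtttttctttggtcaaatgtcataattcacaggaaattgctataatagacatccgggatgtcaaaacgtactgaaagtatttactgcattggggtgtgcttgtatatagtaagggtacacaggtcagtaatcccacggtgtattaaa
Acod1 promoter, chr14:103046762-103047061, plus strand: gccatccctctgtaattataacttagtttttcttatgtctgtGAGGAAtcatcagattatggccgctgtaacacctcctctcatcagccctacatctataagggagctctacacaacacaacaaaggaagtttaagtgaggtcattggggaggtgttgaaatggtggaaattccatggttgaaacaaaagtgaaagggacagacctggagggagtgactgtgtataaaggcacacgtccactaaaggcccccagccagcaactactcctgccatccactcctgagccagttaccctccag
Clec4d promoter, chr6:123261857-123262156, plus strand: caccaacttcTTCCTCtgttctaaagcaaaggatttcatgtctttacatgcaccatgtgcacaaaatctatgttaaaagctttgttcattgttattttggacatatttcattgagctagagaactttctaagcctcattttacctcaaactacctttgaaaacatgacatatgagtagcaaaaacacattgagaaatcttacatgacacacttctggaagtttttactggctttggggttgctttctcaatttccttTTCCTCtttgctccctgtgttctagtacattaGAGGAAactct
Cxcr2 promoter, chr1:74153744-74154043, plus strand: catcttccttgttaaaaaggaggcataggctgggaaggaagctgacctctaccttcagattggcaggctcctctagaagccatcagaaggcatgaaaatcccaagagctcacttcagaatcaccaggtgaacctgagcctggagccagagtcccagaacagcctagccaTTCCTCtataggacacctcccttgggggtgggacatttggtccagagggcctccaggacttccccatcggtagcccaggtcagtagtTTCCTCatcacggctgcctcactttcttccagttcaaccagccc
C1qb promoter, chr4:136886151-136886450, minus strand: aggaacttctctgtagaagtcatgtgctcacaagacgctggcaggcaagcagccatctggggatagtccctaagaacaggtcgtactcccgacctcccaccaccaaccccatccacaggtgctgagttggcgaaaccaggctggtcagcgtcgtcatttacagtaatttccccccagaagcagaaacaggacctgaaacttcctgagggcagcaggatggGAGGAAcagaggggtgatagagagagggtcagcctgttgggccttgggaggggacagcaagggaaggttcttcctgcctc
C1qc promoter, chr4:136892865-136893164, minus strand: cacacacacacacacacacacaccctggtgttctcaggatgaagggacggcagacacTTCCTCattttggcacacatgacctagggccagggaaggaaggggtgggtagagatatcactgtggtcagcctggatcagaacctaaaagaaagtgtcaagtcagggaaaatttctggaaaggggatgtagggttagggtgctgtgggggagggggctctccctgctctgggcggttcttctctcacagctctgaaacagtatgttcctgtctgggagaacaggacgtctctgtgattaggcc
Promoters were found for 28 of the 33 members. The GAGGAA core was present in any window of 19 of these 28 genes, and in 28.3% of the 32851 promoter windows of the table. TTGCNNAA was present for 6 of the 28 genes and in 10.8% of all windows. A gene was counted if any of its windows matched, while the percentages are of single windows, so they are not like for like. In the windows printed, Clec4d had 3 matches to the PU.1 core, Cxcr2 had 2 and Acod1, C1qb and C1qc had 1 each, while Retnlg had 1 match to the C/EBP pattern. A match is a description of letters, not evidence of binding.

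Ligands come first among the related genes. Of 8 neutrophil attractants and growth factors 4 were tested and none was called, with a median log2 fold change of -1.34. Cxcl2, a Cxcr2 ligand, was at 1.48, 0.672, 0.121 and 1.50 CPM in cKO replicates 1 to 4 and at 0.682, 11.0, 4.89 and 1.98 CPM in WT replicates 1 to 4. Its highest level was in WT replicate 2, WT replicate 1 lay within the cKO range, and the difference did not pass (log2 fold change -2.29 ± 0.89 SE, edgeR adjusted p = 0.209). Cxcl1, a more abundant Cxcr2 ligand, was at 5.59, 0.224, 0.603 and 12.2 CPM in cKO and at 6.42, 0.968, 9.05 and 8.30 CPM in WT. Its highest level was in cKO replicate 4 and the groups overlapped (-0.41 ± 1.03, edgeR adjusted p = 0.877). Cxcl3, a further ligand of the receptor, did not pass either (-2.28 ± 0.90, adjusted p = 0.220). Csf3, which encodes G-CSF, did not pass the count filter. It stood at 0.104, 0.028, 0 and 0.0476 CPM in the cKO libraries and at 0.734, 0.111, 7.58 and 1.39 CPM in the WT libraries, so the groups did not overlap, and WT replicate 3 held most of it and WT replicate 2 the least of the WT libraries. Csf2, which encodes GM-CSF, did not pass the filter either, with 6, 0, 7 and 21 counts in cKO and 1, 1, 4 and 5 counts in WT, and the groups overlapped. The most abundant gene of the list was Cxcl16 (0.48 ± 0.15, edgeR adjusted p = 0.135), the 1 tested gene with a positive fold change. It is best known as the ligand of Cxcr6 on T cells and not as a neutrophil attractant, although the list counts it.

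Of 9 monocyte attractants and growth factors 7 were tested and none was called (median -0.43). Csf1, the growth factor of macrophages, was the closest. It was at 8.58, 8.49, 5.26 and 5.83 CPM in cKO and at 12.0, 11.8, 15.0 and 14.0 CPM in WT, with every cKO library below every WT library (log2 fold change -0.90 ± 0.19 SE, edgeR adjusted p = 0.053). Il34, the other ligand of Csf1r and the one on which Langerhans cells depend, was at 8.30 to 19.3 CPM in cKO and 13.2 to 14.7 CPM in WT (0.11 ± 0.24, adjusted p = 0.859). Ccl2, a Ccr2 ligand, had a higher mean in cKO without passing (1.62 ± 0.54, adjusted p = 0.157), as had Ccl6 (1.52 ± 0.42, adjusted p = 0.099), a chemokine of rodent myeloid cells whose groups did not overlap.

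Of the neutrophil genes, 3 were at or near 0 in every library. The granule proteins Ngp and Ltf (lactoferrin) and the surface protein Cd177 had 0 to 5 counts in any library and 19 counts in all 8 together, and none passed the filter. A count of 0 allows up to 3 counts, or 0.0714 to 0.0840 CPM in these libraries, for counting error only. These 3 were thus at or near that floor in both genotypes, whereas the neutrophil genes described next were above it in WT replicate 2 and some of them in other libraries.

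Retnlg, a resistin-like protein abundant in mouse neutrophils, whose window above holds the C/EBP match, had 4, 1, 0 and 1 counts in cKO replicates 1 to 4 and 4, 220, 7 and 8 counts in WT replicates 1 to 4. WT replicate 2 alone held 89.8% of all its counts, and the other WT libraries had as many counts as the highest cKO library or a few more. Clec4d, a C-type lectin of neutrophils and monocytes that signals through Fcer1g, had 7, 6, 0 and 5 counts in cKO and 13, 86, 4 and 21 counts in WT. WT replicate 2 was again highest and WT replicate 3 lay within the cKO range. Acod1, the enzyme that makes itaconate in activated myeloid cells, had 3, 3, 1 and 3 counts in cKO and 14, 45, 3 and 15 counts in WT. Here WT replicates 1, 2 and 4 were above every cKO library, and WT replicate 3 had as many counts as the highest cKO libraries.

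None of these passed the filter, so they were not part of the edgeR test above. When all genes with a count were tested, Retnlg had a log2 fold change of -5.32 (edgeR adjusted p = 0.0927), Acod1 -2.98 (adjusted p = 0.0893) and Clec4d -2.84 (adjusted p = 0.181). DESeq2 called Acod1 (adjusted p = 0.0129) and Clec4d (adjusted p = 0.0446) as lower in cKO and gave no p for Retnlg. With WT replicate 2 left out, an alternative chosen after the data were seen, the edgeR adjusted p was 0.404 for Retnlg, 0.280 for Acod1 and 0.522 for Clec4d, and DESeq2 gave 0.159 for Acod1 and 0.437 for Clec4d. Neither DESeq2 call held without that library. The edgeR log2 fold changes without it stayed negative, at -2.07 for Retnlg, -2.11 for Acod1 and -1.53 for Clec4d, so those of Retnlg and Clec4d shrank by over 1.5 times.

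Hdc, histidine decarboxylase, which makes histamine in mast cells, basophils and neutrophils, passed the filter. It had 8, 17, 3 and 2 counts in cKO and 11, 83, 14 and 19 counts in WT. WT replicate 2 was the highest, and cKO replicate 2 lay within the range of the other WT libraries. The log2 fold change was -2.12 ± 0.87 SE (95% confidence interval -4.07 to -0.17, edgeR adjusted p = 0.232, exact two-sided permutation p = 0.0857), and it was -0.99 without WT replicate 2. The mast cell protease genes Cma1, Cpa3, Mcpt4 and Tpsb2 had at most 3 counts in any cKO library and 0 in every WT library. Kit, the 1 tested gene of the mast cell list, had 140, 41, 163 and 60 counts in cKO and 52, 45, 34 and 39 in WT (1.14 ± 0.43, edgeR adjusted p = 0.196). The part of mast cells in the Hdc level was not tested.

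Csf3r, the G-CSF receptor, had 17, 5, 0 and 12 counts in cKO and 5, 42, 14 and 17 in WT (log2 fold change -1.29 ± 0.88 SE, edgeR adjusted p = 0.472). Mmp8, the neutrophil collagenase, had 25, 0, 4 and 10 counts in cKO and 3, 39, 13 and 13 in WT (-0.91 ± 0.97, adjusted p = 0.663). For both genes the groups overlapped, cKO replicate 1 was above WT replicates 1 and 3, and WT replicate 2 was the highest of all. Without WT replicate 2 the fold changes were -0.56 for Csf3r and -0.07 for Mmp8. Trem1, a Tyrobp-coupled receptor that amplifies inflammatory signals, had 22, 16, 5 and 16 counts in cKO and 16, 46, 26 and 26 in WT (-1.03 ± 0.50, adjusted p = 0.313), and -0.68 without WT replicate 2.

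**Figure D3:**
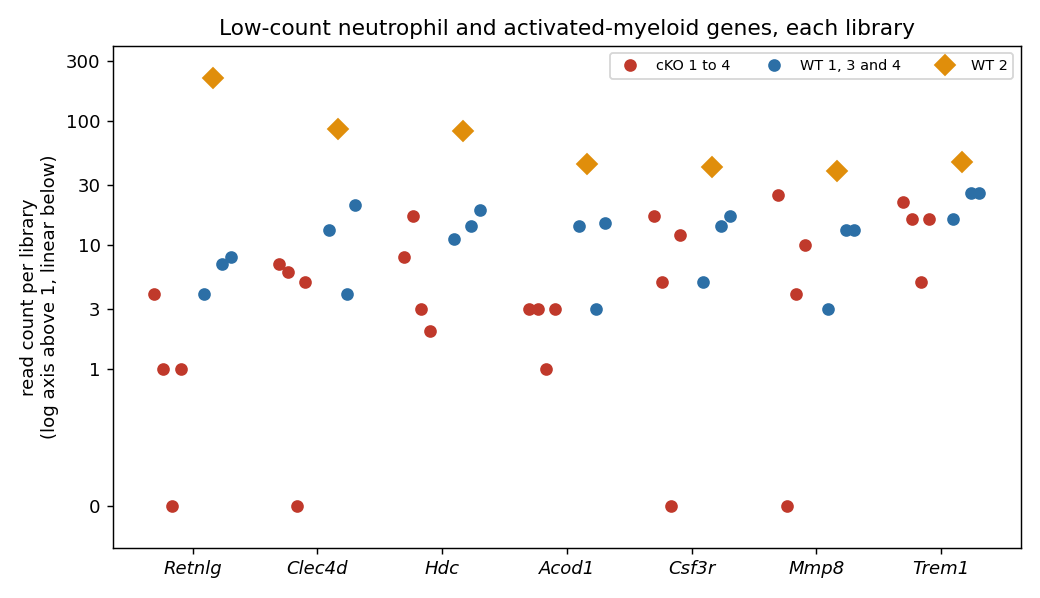
Read counts per library (vertical axis, logarithmic above 1 and linear below) of 7 low-count genes, with cKO libraries left of WT libraries for each gene and WT replicate 2 as a diamond. WT replicate 2 is the highest of the 8 libraries for all 7 genes, from 39 counts of Mmp8 to 220 of Retnlg.

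Together the 10 neutrophil and activated-myeloid genes other than Cxcr2 and Il1r2 had 87, 48, 13 and 53 counts in cKO replicates 1 to 4 and 67, 571, 81 and 122 counts in WT replicates 1 to 4. WT replicate 2 held 54.8% of the sum over the 8 libraries, and the groups overlapped with or without it. That library also held the highest sum of 6 fibroblast markers, 9.92 CPM against 1.15 to 4.01 CPM in the other WT libraries and 1.09 to 3.75 CPM in cKO libraries. Its 5 red blood cell markers summed to 51.9 CPM, against 21.4 to 31.0 CPM in the other WT libraries and 11.4 to 24.6 CPM in cKO libraries. Other lists did not peak there. Its 5 endothelial markers summed to 1.38 CPM, against 1.34 to 2.49 CPM in the other WT libraries and 0.868 to 1.43 CPM in cKO libraries. Its 10 pan-leukocyte genes had the lowest sum of the 8 libraries, 105 CPM, against 135 to 236 CPM in the other WT libraries and 131 to 195 CPM in cKO libraries. The part of fibroblasts and red blood cells in the neutrophil counts was not tested.

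Cxcr2 and Il1r2 stood apart from these genes. On the length-scaled FPKM scale Cxcr2 averaged 6.28 and Il1r2 7.19 over the 8 libraries, ranks 5 and 4 among the 33 members, whereas Csf3r averaged 0.0799, Trem1 0.158 and Mmp8 0.144 FPKM. Both receptors are also made by human keratinocytes. Cxcr2, the receptor of Cxcl1, Cxcl2 and related chemokines, was at 5.67, 29.8, 13.0 and 8.59 CPM in cKO and at 18.5, 17.6, 31.3 and 35.2 CPM in WT. The cKO libraries other than replicate 2 lay below all WT libraries, and cKO replicate 2 lay among them. The log2 fold change was -0.85 ± 0.48 SE (95% confidence interval -1.92 to 0.22, edgeR adjusted p = 0.379). It was -1.48 without cKO replicate 2 (adjusted p = 0.0569).

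Il1r2, the decoy receptor that binds interleukin-1 without signalling, was at 5.83, 24.3, 47.7 and 3.54 CPM in cKO and at 23.3, 17.0, 17.9 and 13.7 CPM in WT. The cKO libraries stood on both sides of the WT libraries, with replicates 1 and 4 below and replicates 2 and 3 above them. Its log2 fold change of 0.18 ± 0.68 SE (edgeR adjusted p = 0.922) turned to -0.69 without cKO replicate 3.

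Calprotectin, a protein of neutrophils and of activated keratinocytes, did not follow the neutrophil genes either. S100a9 was at 3952, 889, 691 and 5698 CPM in cKO and at 2368, 1945, 8035 and 9657 CPM in WT, so that WT replicate 2, the highest in Retnlg, was the lowest of the WT libraries. S100a8, its partner, which had the highest mean FPKM of that list and lower CPM than S100a9, did not pass either (-1.03 ± 0.62, edgeR adjusted p = 0.413). Among 16 other neutrophil genes present, 8 were tested (median -0.72) and 1 passed, the gelatinase Mmp9, which was lower in cKO without overlap. Mmp9 was at 1.87, 5.21, 1.38 and 0.571 CPM in cKO and 11.3, 16.3, 22.1 and 18.9 CPM in WT (log2 fold change -2.93 ± 0.57 SE, edgeR adjusted p = 0.0439). Its highest level was in WT replicate 3, not in WT replicate 2 as for Retnlg, and its cell source was not tested. That call was lost, at an adjusted p of 0.0701 to 0.115, without any 1 of cKO replicates 1 and 3 and the 4 WT libraries, with log2 fold changes of -2.76 to -3.09. It was also lost on log2(FPKM + 1) without a filter (limma adjusted p = 0.0599, fold change -1.79 on that scale).

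Among monocyte and macrophage receptors, Cd14 had the clearest separation. It was at 4.37, 2.44, 2.15 and 3.12 CPM in cKO and at 5.40, 9.15, 4.53 and 7.65 CPM in WT, from 87 to 331 counts per library. Every cKO library was below every WT library, the 1 such case among the 25 tested members, where 11.1% of all tested genes separate and 5.82% separate as lower. Cd14 averaged 3.02 ± 0.988 CPM (SD, n = 4) in cKO, against 6.68 ± 2.11 CPM (SD, n = 4) in WT. The fitted fold change was -1.15 ± 0.30 on the log2 scale (SE, 95% confidence interval -1.82 to -0.47), with an edgeR adjusted p of 0.0874 and an exact permutation p of 0.0286, the smallest that 4 against 4 allows. The adjusted p ran from 0.00513 with DESeq2 to 0.213 over 20 alternatives and was below 0.05 in 2, DESeq2 with all libraries and DESeq2 with WT replicate 2 left out (0.0494).

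Itgam, the integrin αM chain (CD11b) of neutrophils, monocytes and many macrophages, was at 7.23, 2.44, 3.04 and 3.31 CPM in cKO and at 5.98, 7.55, 6.39 and 6.91 CPM in WT. WT libraries lay close together, and 3 cKO libraries lay below them while cKO replicate 1 lay among them (log2 fold change -0.74 ± 0.32 SE, edgeR adjusted p = 0.258, exact permutation p = 0.114). Without cKO replicate 1 it was -1.18 (adjusted p = 0.0588). Lyz2, lysozyme M of myeloid cells, had the same order within cKO, at 15.8, 3.56, 5.16 and 7.40 CPM in cKO and 9.02, 13.2, 8.55 and 12.3 CPM in WT (-0.43 ± 0.41, adjusted p = 0.615), and -0.99 without cKO replicate 1.

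The Fc receptors overlapped between genotypes. Fcgr3, the low-affinity receptor for IgG, was at 4.00, 0.756, 0.989 and 2.85 CPM in cKO and at 2.86, 3.18, 0.861 and 2.38 CPM in WT (log2 fold change -0.11 ± 0.57 SE, edgeR adjusted p = 0.948). Fcgr1, the high-affinity receptor, was low throughout, with 4 to 39 counts in cKO and 12 to 34 counts in WT (-0.57 ± 0.69, adjusted p = 0.708). Ly6c2, a marker of classical monocytes with near-identical gene copies, had 16, 10, 4 and 5 counts in cKO and 3, 4, 2 and 6 counts in WT and did not pass the filter. Its fold change without a filter was 1.13 (adjusted p = 0.478), 1 of 2 untested members with a positive sign.

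Ccr2, the receptor that brings monocytes and some T cells into tissue, was at 10.8, 5.88, 10.6 and 4.45 CPM in cKO and at 5.74, 4.92, 18.7 and 29.6 CPM in WT. WT replicates 3 and 4 were above all others, and WT replicates 1 and 2 lay within the cKO range (log2 fold change -0.89 ± 0.57 SE, edgeR adjusted p = 0.437). Without WT replicate 4 it was -0.31. The sum of 6 T cell markers was also highest among WT in WT replicates 3 and 4, at 53.0 and 84.6 CPM. It was 24.8 and 14.7 CPM in WT replicates 1 and 2, and 32.1, 55.0, 45.7 and 19.4 CPM in the cKO libraries. The part of T cells in the Ccr2 level was not tested. Cx3cr1, the fractalkine receptor of resident and patrolling myeloid cells, was at 0.856 to 3.38 CPM in cKO and 1.69 to 2.46 CPM in WT (-0.12 ± 0.40, adjusted p = 0.911).

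Csf1r, the receptor of Csf1 and Il34, was at 19.1, 29.4, 21.2 and 6.85 CPM in cKO and at 18.4, 14.5, 16.8 and 14.7 CPM in WT. The cKO libraries other than replicate 4 were above every WT library, and cKO replicate 4 was below all of them, so the coefficient of variation was 48.6% in cKO and 11.5% in WT (log2 fold change 0.25 ± 0.35 SE, edgeR adjusted p = 0.757). Without cKO replicate 4 it was 0.53 (adjusted p = 0.137). The Langerhans cell lectin Cd207 had the same order in cKO, at 5.88, 25.9, 15.9 and 3.21 CPM in replicates 1 to 4, against 5.06, 2.99, 6.28 and 4.68 CPM in WT, and did not pass either (1.42 ± 0.57, adjusted p = 0.227). Cd207 had the largest fold change of the 7 tested Langerhans and dendritic cell markers. Their log2 fold changes ran from -0.02 to 1.42 with a median of 0.37, and none was called. The part of Langerhans cells in the Csf1r level was not tested.

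Genes of tissue macrophage proteins overlapped between genotypes. Cd68, a lysosomal glycoprotein of phagocytes, was at 7.88, 6.53, 4.90 and 3.40 CPM in cKO and at 5.03, 6.08, 6.80 and 6.05 CPM in WT (fold change on the log2 scale -0.08 ± 0.25 SE, 95% confidence interval -0.65 to 0.49, edgeR adjusted p = 0.905). Adgre1, which encodes F4/80, was at 4.45, 1.71, 2.46 and 2.09 CPM in cKO and 4.22, 2.02, 3.17 and 3.72 CPM in WT (-0.29 ± 0.35, adjusted p = 0.700). In cKO both were highest in replicate 1. Ms4a7 (-0.51 ± 0.52, adjusted p = 0.646) and the mannose receptor gene Mrc1 (-0.02 ± 0.54, adjusted p = 0.987) lay below 3 CPM everywhere, and the haemoglobin scavenger receptor gene Cd163 had 0 to 3 counts per library in both genotypes.

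The C1q chains had the same order among cKO libraries and overlapped between genotypes. C1q starts the classical complement pathway and is built from 3 kinds of chain encoded by C1qa, C1qb and C1qc, which are neighbours on chromosome 4 with no other protein-coding gene between them in the RefSeq table. They summed to 27.6, 5.46, 13.8 and 12.2 CPM in cKO replicates 1 to 4 and to 19.0, 10.3, 17.6 and 19.2 CPM in WT replicates 1 to 4. The top and the bottom of all 8 libraries were both cKO, replicate 1 and replicate 2, and WT replicate 2 was the lowest WT library for all 3 chains although it was the highest for the neutrophil genes. C1qa made up 34.6% to 53.8% of the C1q counts in cKO and 33.5% to 38.2% in WT. The log2 fold changes were -0.01 ± 0.38 for C1qa, -0.21 ± 0.48 for C1qb and -0.33 ± 0.48 for C1qc (SE, edgeR adjusted p = 0.991, 0.864 and 0.770). The 95% confidence interval of C1qa, -0.86 to 0.84, spans 0.551 to 1.79 times the WT level.

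**Figure D4:**
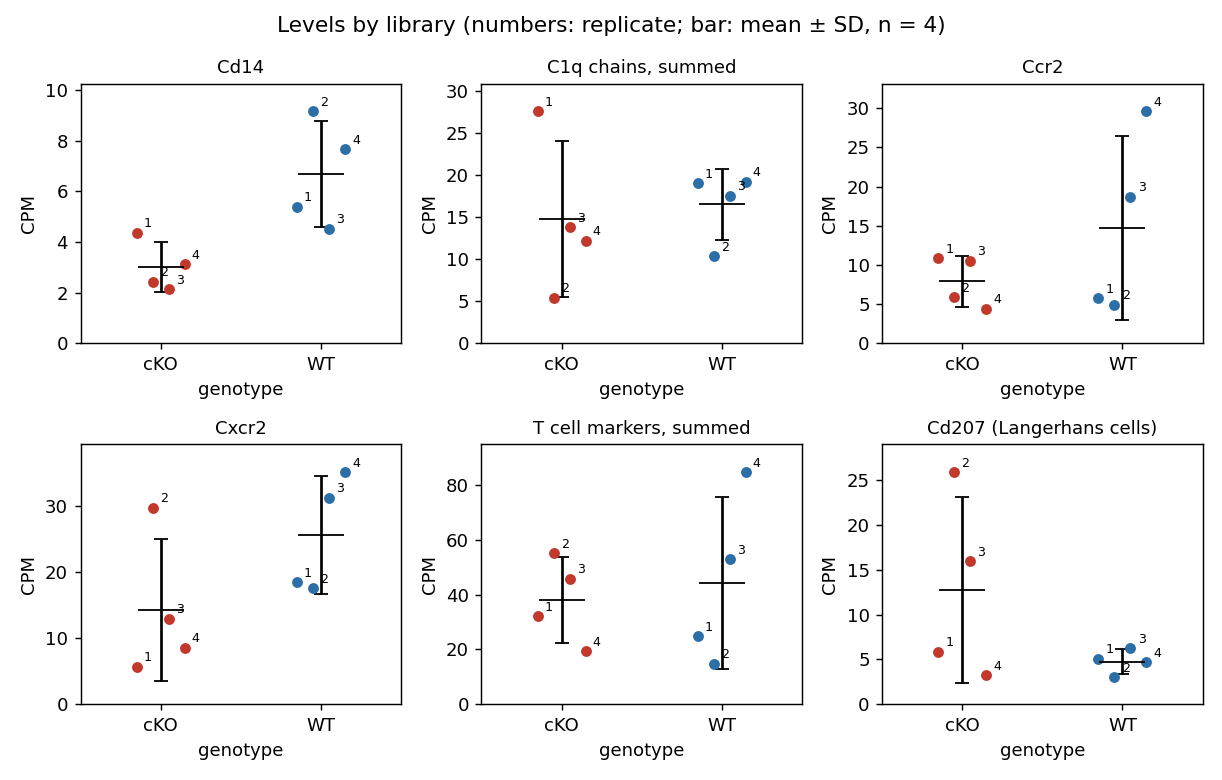
Levels (CPM, vertical axis) of Cd14, the summed C1q chains, Ccr2, Cxcr2, the summed T cell markers and Cd207 in cKO (left) and WT (right), with 1 point per library numbered by replicate and bars for mean ± SD (n = 4 each). Cd14 is the only panel without overlap, and the panels of C1q and Cd207 show opposite extremes for cKO replicate 2, at 5.46 and 25.9 CPM.

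The adaptors carry immunoreceptor tyrosine-based activation motifs, through which Trem1, Clec4d and the Fc receptors signal to the kinase Syk. Tyrobp (DAP12) had the narrowest range of the tested members, 1.71-fold over the 8 libraries, at 5.18, 5.15, 4.95 and 3.14 CPM in cKO and at 5.30, 5.36, 3.61 and 4.82 CPM in WT (fold change on the log2 scale -0.05 ± 0.22 SE, 95% confidence interval -0.55 to 0.44, edgeR adjusted p = 0.930). The groups overlapped and cKO replicate 4 was the lowest. Fcer1g, the common Fc receptor γ chain, was at 5.12, 1.74, 3.40 and 2.16 CPM in cKO and 4.93, 3.57, 3.11 and 5.65 CPM in WT (-0.47 ± 0.36, adjusted p = 0.516). Of the 10 tested receptors and kinases that act with these adaptors none was called (median -0.09), nor was the most abundant, the phospholipase gene Plcg2 (-0.20 ± 0.16, edgeR adjusted p = 0.548). Syk itself was at 2.34, 2.83, 3.06 and 2.19 CPM in cKO and 4.90, 6.22, 3.44 and 3.72 CPM in WT, without overlap (-0.81 ± 0.24, adjusted p = 0.122).

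Laptm5, a lysosomal protein of all leukocytes, had the highest mean FPKM of the 33 members, 9.30. It was at 23.1, 21.6, 23.6 and 12.6 CPM in cKO and at 16.8, 14.4, 27.7 and 41.1 CPM in WT (log2 fold change -0.31 ± 0.33 SE, edgeR adjusted p = 0.669). WT replicates 3 and 4 were the highest of the 8 libraries, as for Ccr2, and the fold change was 0.04 without WT replicate 4. Aif1, which encodes the macrophage protein Iba1, was at 0.364 to 1.61 CPM in cKO and 0.608 to 1.63 CPM in WT (-0.31 ± 0.47, adjusted p = 0.781). None of 10 pan-leukocyte genes was called, with a median log2 fold change of -0.10, the most abundant, Arhgdib, at 0.26 ± 0.20 (adjusted p = 0.528) and the common leukocyte antigen Ptprc at -0.11 ± 0.33 (adjusted p = 0.898). None of the 6 phagocyte oxidase genes was called either (median -0.22), with the most abundant, Cyba, at -0.47 ± 0.29 (adjusted p = 0.418) and Cybb, the catalytic subunit, at -0.27 ± 0.56 (adjusted p = 0.846).

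The median spread between libraries was wider for these genes than for all tested genes, which were not matched to them for level. Low counts, such as the 0 to 42 per library of Csf3r, add counting noise to the spread. The median coefficient of variation of the 25 tested members was 56.5% in cKO and 32.4% in WT, where all tested genes had 19.6% in cKO and 13.3% in WT. Within cKO, replicate 1 was the highest library for 19 of the 25, and replicate 2 was the lowest for 12 and replicate 4 for 8. In WT the highest library was replicate 2 for 9 members and replicate 4 for 8, and replicate 2 was also the lowest for 12. The standard error of the log2 fold change had a median of 0.48 over the members and 0.18 over all tested genes.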

How the data were processed

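RNA from the epidermis of 8 imiquimod-treated mice was sequenced. The authors deposited integer read counts for each gene symbol and matching FPKM values. HISAT2 and HTSeq were used, per the submitters' processing notes. The sources used here give no versions, genome build, annotation or strand setting, so a gene and an antisense partner cannot be told apart. The deposited FPKM equal the counts scaled by length and library total for 20863 of 20863 genes within a relative tolerance of 1e-04, so they hold the same reads.

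Counts were tested with edgeR 4.0.16 (R 4.3.3) by the quasi-likelihood test after filterByExpr and TMM scaling, with no covariate and Benjamini-Hochberg adjustment over 14004 genes. Alternatives used DESeq2 1.42.0 and limma 3.58.1. CPM are TMM-scaled. Standard errors are those implied by the F statistic. The permutation test was two-sided and exact over 70 splits. The members, lists and rules were chosen with earlier results of these data known. All 33 members were accounted for, with values in every library for called, separated or abundant members, and related genes named where called or abundant. Cxcl1, Cxcl2, Cxcl3, Csf2, Csf3, Ccl2, Ccl6, Csf1, Syk, Cd207, S100a9, Cybb and Ptprc were named after their values were seen. No pair of libraries of a genotype agreed within sampling noise (lowest chi-square per degree of freedom 47.9).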

Additional observations from a re-analysis of the deposited data

Results flagged for a closer look

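For independent and normally distributed values, chance puts 1 library far from the others in about 1 of 20 groups of 4. In 56 groups of 4 libraries checked for 1 library far from the others, 3 stood out, where that rate gives about 2.8. The groups were those of the 25 tested members and of Retnlg, Clec4d and Acod1, which were picked for the check. The other untested members were not checked. Members share libraries and their CPM are skewed, so the comparison with 2.8 is no test. Retnlg was at 6.08 CPM in WT replicate 2, a gap to the next WT library of 0.982 of the range. Hdc was at 2.29 CPM in the same library, with a gap of 0.890. Tyrobp was at 3.14 CPM in cKO replicate 4, below the other cKO libraries, with a gap of 0.887.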

How the results depend on the processing

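No member was called in the alternatives run, except with DESeq2. It called 3 members as lower (Cd14, Acod1 and Clec4d), and 1 with WT 2 left out (Cd14, a combination chosen after seeing the data). Over all genes the calls were 94 higher and 91 lower. They were 177 and 172 with no low-count filter, 707 and 587 with DESeq2, 508 and 379 with DESeq2 and WT 2 left out, and 11 and 8 on log2(FPKM + 1) without a filter. Leaving out 1 library gave 5 to 251 higher and 3 to 255 lower, with fewer calls without cKO 1, cKO 3 or any WT library and more without cKO 2. The median log2 fold change of the members was -0.56 with limma-voom, -0.14 on log2(FPKM + 1) without a filter, and -0.67 to -0.17 with 1 library left out. The cause of these shifts was not tested. With the replicate number as a block the median was -0.55, with 124 genes higher and 92 lower and no member called, and the adjusted p of Mmp9 was 0.0513. Same-numbered libraries did not deviate together throughout (correlations -0.10, 0.13, 0.10 and 0.19). The WT library that matched best had the same number for cKO replicates 2 and 4 only. Correlations this weak cannot decide whether the numbers pair the samples.

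Signs of small fold changes turned. Il1r2 was at -0.52 with limma-voom, -0.27 on log2(FPKM + 1) with or without the filter, -0.42 on log2(FPKM + 0.1) and -0.48 with the replicate block. Mrc1 was at 0.052 with library-size scaling, 0.059 with limma-voom, 0.0072 on log2(FPKM + 1) without a filter and 0.040 with the block. C1qa was at 0.052 with library-size scaling and 0.010 with at least 1 CPM in 4 libraries. With WT 2 left out, Fcgr3 was at 0.070 without a filter and 0.080 with DESeq2, and Tyrobp at 0.0029 with DESeq2. Leaving out 1 library gave -0.69 to 0.53 for Il1r2, -0.47 to 0.38 for Mrc1, -0.48 to 0.23 for C1qa, -0.67 to 0.12 for C1qb, -0.58 to 0.19 for Fcgr3, -0.019 to 0.53 for Csf1r, -0.53 to 0.14 for Cx3cr1, -0.28 to 0.11 for Cd68, -0.17 to 0.10 for Tyrobp and -0.49 to 0.039 for Laptm5. Of 502 values of single tested members and Mmp9 under the alternatives, 454 kept direction and side of the threshold. Counts of 0 to 5 per library limit Ngp, Ltf, Cd177 and Cd163.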
